A study of Mus musculus with 17 samples.

Results

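The 8 genes described here belong to the complement system and were followed in mouse peritoneal macrophages (PMs) given the HIV protein Tat. They were C1qa, C1qb and C1qc, which encode the chains of C1q, then C3, Cfb (factor B) and Cfp (properdin), and the receptor genes C3ar1 and C5ar1. Members were the rows of the expression table whose symbol equals one of these names. All 8 were found among 21683 rows, and all 8 passed the filter on low values (1 TPM or more in 5 libraries or more), which kept 10451 genes for testing.

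Complement is a cascade of serum proteins that tags and lyses microbes and clears dying cells. C1q recognises antibody complexes and apoptotic material and starts the classical pathway, whereas C3 fragments bound to factor B form the convertase of the alternative pathway, which properdin stabilises. The small fragments C3a and C5a act on myeloid cells through the receptors C3aR and C5aR1. Most complement proteins come from the liver, but macrophages are a principal source of C1q and properdin and make C3 and factor B locally.

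RNA-Seq had been performed on 17 libraries of thioglycollate-elicited PMs in 3 groups. Every mouse carried loxP-flanked Ikbkb alleles (IKKβ F/F) and a further mutation common to all 3 groups, on a C57BL/6 background and 8 weeks old by the labels. IKKβ F/F PMs were given PBS (F/F PBS, called PBS below, n = 6 libraries) or 100 nM Tat (F/F Tat, n = 6), and PMs of IKKβ ΔMye mice, which also carry a heterozygous LysM-Cre knock-in, were given 100 nM Tat (ΔMye Tat, n = 5). LysM-Cre removes IKKβ, the kinase that activates canonical NF-κB, in myeloid cells and also interrupts one copy of Lyz2. The F/F mice carried no Cre, so Cre and the loss of IKKβ cannot be told apart. Mice received 1 mL of 3% thioglycollate, PMs were collected 3 days later by the labels (4 days by the study's methods), were left 4 h to attach and were exposed for 12 h. Tat was a recombinant protein of the first-exon residues made in bacteria, from which endotoxin had been removed. ΔMye PMs given PBS were not analysed here, which leaves the interaction of genotype with Tat out of reach, and the Tat groups may have differed before exposure. The study's legends describe the columns of its RNA-Seq heatmaps as biological replicates of mice. The labels do not say which libraries came from the same animal or culture, so p-values measure the spread between these libraries, which may be partly technical.

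TPM is a transcript abundance corrected for transcript length and library total, and it keeps no read counts, so the depth of each library and the counting error are unknown. The listed genes of a library summed to between 889318 and 903576 TPM. Across all tested genes the median log2 difference was -0.65 for F/F Tat against PBS and 0.22 for ΔMye Tat against F/F Tat. A member that moved with the median gene therefore had a log2 difference below 0 with Tat, and each difference is given as deposited and again after median-ratio scaling (every library divided by its typical gene-wise ratio to the average library), which brought these medians to -0.03 and 0.01. Ikbkb was at 24.5 to 30.1 TPM in PBS and 21.6 to 25.4 TPM in F/F Tat libraries, and in ΔMye Tat at 12.8 to 19.9 TPM, a weak check of the labels since Cre removes only part of the gene. Macrophage markers were the highest marker list in every library, with the 7 macrophage markers at a summed median of 26154, 9340 and 6965 TPM in the PBS, F/F Tat and ΔMye Tat groups, most of it Lyz2. The other marker lists summed to at most 110 TPM in any library. In the same order, mesothelial markers summed to 4.46 to 6.46, 2.39 to 4.03 and 1.73 to 2.35 TPM, fibroblast markers were at 27.7 to 37.6, 27.7 to 32.2 and 16.0 to 20.6 TPM, and neutrophil markers, of which Ngp was listed at 0 in all libraries, at 73.0 to 84.1, 69.3 to 80.6 and 91.1 to 109.9 TPM. Most of the neutrophil sum was S100a8, at means of 53.8, 68.6 and 91.4 TPM. Mmp8 was at means of 15.9, 2.57 and 3.82 TPM, Retnlg at 5.07, 0.671 and 0.298, and S100a9 at 1.15, 0.842 and 0.716. Camp was at means of 1.64, 1.86 and 2.31 TPM and Ly6g at 0.0338, 0.274 and 0.351. Resident peritoneal macrophage markers were at 30.5 to 38.1, 31.6 to 38.4 and 18.3 to 23.9 TPM, but the genes of this list moved differently. Timd4 was at means of 12.7, 21.7 and 7.09 TPM and Icam2 at 17.3, 12.3 and 12.9 TPM. Gata6 was at means of 1.55, 0.282 and 0.475 TPM, Selp at 1.79, 1.32 and 0.436, and Garnl3 at 0.353, 0.237 and 0.243. The part of such cells in the results below was not tested. In bulk RNA, fewer cells of a type and less RNA per cell cannot be told apart.

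The 3 C1q genes lie side by side on the minus strand of chromosome 4 (GRCm38), C1qb at 136880129 to 136886187, C1qc at 136889804 to 136893065 and C1qa at 136895917 to 136898803. C3 (chromosome 17, 57203970 to 57228136) and Cfb (chromosome 17, 34856374 to 34862518) share a chromosome, and Cfp lies on the X chromosome (20925454 to 20931555), C3ar1 on chromosome 6 (122847138 to 122856161) and C5ar1 on chromosome 7 (16246743 to 16259540). Upstream windows of 250 bases from RefSeq (GRCm38.p6) were found for 6 of the 8 genes, all but C1qa and Cfb. The windows of C1qb, the C1q gene with the largest difference between the Tat groups, and C3, which was higher with Tat, are shown 5′ to 3′ on the minus strand, ending at the base before the RefSeq start. Capitals mark the PU.1 core GAGGAA in C1qb and a match to the C/EBP pattern TTGCNNAA in C3, a pattern added after the letters of the C3 window had been read.
C1qb, chr4:136886201-136886450, minus strand: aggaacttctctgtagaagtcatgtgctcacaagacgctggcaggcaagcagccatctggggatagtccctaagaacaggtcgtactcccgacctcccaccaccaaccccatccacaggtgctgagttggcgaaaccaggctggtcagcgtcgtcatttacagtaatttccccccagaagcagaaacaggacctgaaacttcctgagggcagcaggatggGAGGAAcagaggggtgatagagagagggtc
C3, chr17:57228137-57228386, minus strand: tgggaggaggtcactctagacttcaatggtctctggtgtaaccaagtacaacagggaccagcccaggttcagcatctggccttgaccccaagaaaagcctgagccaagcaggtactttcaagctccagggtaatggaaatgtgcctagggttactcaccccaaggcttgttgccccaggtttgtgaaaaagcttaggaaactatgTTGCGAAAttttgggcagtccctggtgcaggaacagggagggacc

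The 6 patterns searched on both strands of the windows were the NF-κB consensus, the interferon-stimulated response element core, the STAT pattern TTCNNNGAA, the AP-1 pattern TGANTCA, the PU.1 core GAGGAA and the C/EBP pattern TTGCNNAA. The PU.1 core lay 30 to 25 bases before the start of C1qb and the C/EBP match 45 to 38 bases before that of C3. C1qc had an NF-κB consensus match 41 to 32 bases before its RefSeq start and the PU.1 core on the other strand 193 to 188 bases before it. The NF-κB match lies in the untranslated first exon of a longer C1qc transcript in the GENCODE annotation. C3ar1 had an AP-1 match 22 to 16 bases before its start. The stretches around the C1qc NF-κB match and the C3ar1 match are given with the match in capitals.
C1qc, chr4:136892936-136892965, minus strand: tgtgggggagGGGGCTCTCCctgctctggg
C3ar1, chr6:122856161-122856190, minus strand: agtttaagaggTGACTCAtggaaaggccct
Of all 32851 windows, 7.25% held the NF-κB consensus, 6.75% the AP-1 pattern, 23.3% the PU.1 core, 9.56% the C/EBP pattern, 2.98% the interferon-stimulated element core and 7.02% the STAT pattern. Cfp and C5ar1 held none of these letters, which says only that they are not in these windows. The C5ar1 window, at 16259339 to 16259588, lies partly inside the gene as annotated by GENCODE, which reaches to 16259540.

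Tat moved the complement transcripts apart: Cfb and C3 rose, and the 3 C1q genes fell by more than the median gene, with and without scaling. Cfb rose to 5.56 times its PBS mean. At an adjusted p under 0.01 (limma, Benjamini-Hochberg over all 10451 tested genes), 2 of the 8 members were higher and 6 lower in F/F Tat than in PBS, where 17% of all tested genes were higher and 67.6% lower. After scaling 5 members were higher and 3 lower, beside 37.3% and 38.0% of all tested genes, since Cfp, C3ar1 and C5ar1 changed sign. Cfb alone also passed a fold of 3, as did 5.21% of tested genes in that direction.

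**Figure D1:**
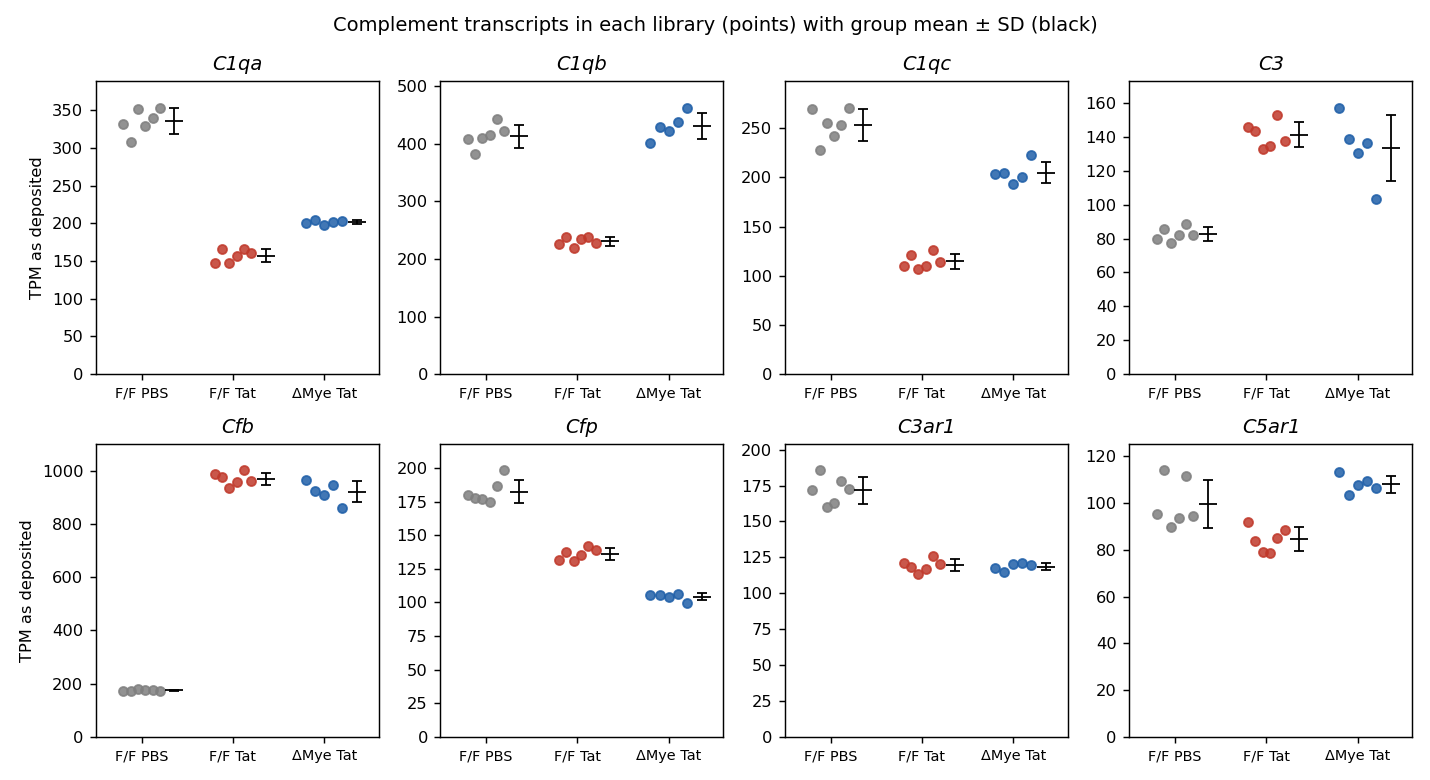
TPM as deposited (vertical axes, each from 0) of the 8 complement genes in every F/F PBS, F/F Tat and ΔMye Tat library (points), with the group mean and SD in black. The 6 F/F PBS libraries of Cfb sit at 172 to 178 TPM and the Tat libraries of both genotypes at 860 to 1001 TPM, while C1qb in ΔMye Tat lies within or near the F/F PBS range.

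C1q is built of equal numbers of A, B and C chains, and TPM is a per-length unit, so the levels of the 3 genes can be compared within a library. C1qa was at 308 TPM in the lowest PBS library, 336 at the median and 353 in the highest, and at 147, 159 and 165 TPM in F/F Tat. C1qb was at 382, 413 and 443 TPM in PBS and at 218, 231 and 239 TPM in F/F Tat. C1qc was at 227, 254 and 271 TPM in PBS and at 107, 112 and 126 TPM in F/F Tat. All 6 Tat libraries were below all 6 PBS libraries for each chain, a separation that 62.4% of all tested genes showed in that direction. The log2 difference was -1.09 for C1qa (standard error 0.04, adjusted p = 5.50e-16, limma), -0.84 for C1qb (0.04, 3.98e-14) and -1.14 for C1qc (0.05, 2.47e-14). Scaling reduced the falls to -0.46, -0.21 (adjusted p = 9.94e-04) and -0.50, each still past the test, and the scaled C1qb groups then overlapped. Of all tested genes, 32.3%, 41.4% and 30.9% had a lower log2 difference than C1qa, C1qb and C1qc. The 2251 tested genes with transcripts under 2000 bases, a class that holds the C1q genes, had a median of -0.75, or -0.12 after scaling. The part of transcript length in the C1q differences was not tested. The 3 chains together went from 1002 ± 46.5 TPM (SD, n = 6) to 503 ± 22.7 TPM.

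C3 is the protein on which all complement pathways converge. It was at 77.5, 81.9 and 88.8 TPM in the lowest, median and highest PBS library and at 133, 141 and 153 TPM in F/F Tat, with no overlap. The log2 difference was 0.77 (standard error 0.07, adjusted p = 3.31e-09, limma), or 1.41 after scaling. Cfb encodes the protease subunit of the alternative convertase. Its transcript was at 172, 174 and 178 TPM in PBS and at 937, 968 and 1001 TPM in F/F Tat, a log2 difference of 2.47 (standard error 0.03, adjusted p = 6.95e-24, limma) and of 3.11 after scaling. Of the tested genes, 97.5% had a lower log2 difference than Cfb and 89.7% a lower one than C3. Their non-overlap upwards was shared by 15.3% of tested genes.

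Cfp, the properdin gene, was at 175, 179 and 198 TPM in the lowest, median and highest PBS library and at 131, 136 and 142 TPM in F/F Tat. Its log2 difference was -0.42 (standard error 0.03, adjusted p = 3.60e-10, limma) as deposited and 0.21 (adjusted p = 2.02e-05) after scaling, so the direction depends on the scale. C3ar1, the C3a receptor gene, was at 160, 172 and 186 TPM in PBS and at 114, 119 and 126 TPM in F/F Tat, a log2 difference of -0.52 (adjusted p = 2.97e-11, limma) as deposited and of 0.11 (adjusted p = 0.00706) after scaling. Both genes separated the groups as deposited and overlapped once scaled. As deposited, Cfp and C3ar1 fell by less than the median gene. With quantile normalization they stood at -0.45 and -0.53, below the median of -0.07 for all tested genes on that scale. Whether they fell by more or less than the median gene therefore depends on the scale.

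C5ar1, the C5a receptor gene, was the member with overlapping groups. It was at 89.6, 94.8 and 114 TPM in the lowest, median and highest PBS library and at 78.8, 84.6 and 91.7 TPM in F/F Tat. The difference was -0.23 (standard error 0.06, adjusted p = 7.60e-04, limma) as deposited, -0.12 (adjusted p = 0.0624) with quantile normalization and 0.40 (adjusted p = 1.46e-07) after median-ratio scaling. PBS libraries 2 and 5 were its high values, at 114 and 112 TPM against 89.6 to 95.2 TPM in the other 4. In the same 2 libraries, genes with transcripts over 5000 bases had a median log2 deviation from their group mean of 0.12 and 0.14, against -0.09 to -0.03 in the other 4. The longest C5ar1 transcript has 2540 bases, so the gene is not of that class. The part of transcript length in the C5ar1 values was not tested.

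**Figure D2:**
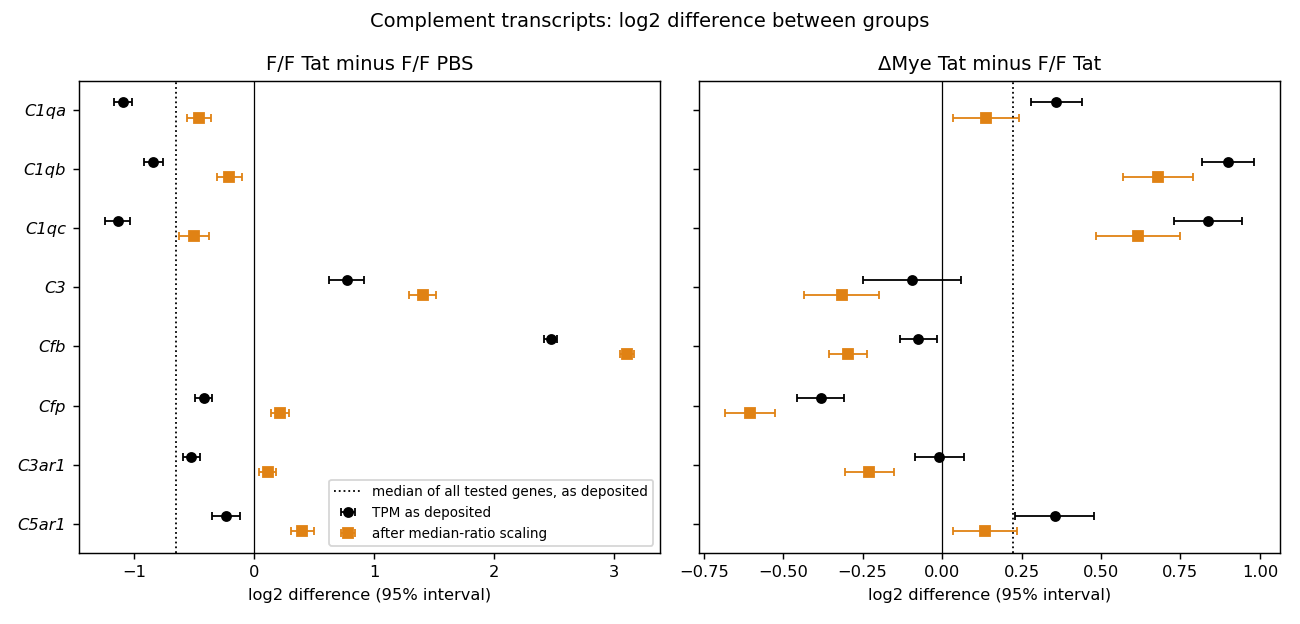
Log2 differences of the 8 genes with 95% intervals (limma), for F/F Tat minus F/F PBS (left) and ΔMye Tat minus F/F Tat (right), as deposited (black circles) and after median-ratio scaling (orange squares). The dotted lines mark the median of all tested genes as deposited, -0.65 and 0.22, and the Cfp, C3ar1 and C5ar1 points on the left lie on either side of 0 depending on the scale.

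Between the Tat groups, the comparison gives the difference between genotypes under Tat, which may include effects of Cre or differences present before exposure. The C1q genes and C5ar1 were higher in ΔMye Tat than in F/F Tat, Cfp was lower, and C3, Cfb and C3ar1 did not pass the test. That is 4 members higher and 1 lower at an adjusted p under 0.01 (limma), beside 38.8% of tested genes higher and 8.87% lower. After scaling 2 were higher (C1qb and C1qc) and 4 lower (C3, Cfb, Cfp and C3ar1), beside 15.9% and 19.4% of tested genes. No member differed over 3-fold, where 0.440% of tested genes were over 3-fold higher and 0.316% lower.

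C1qb was at 401, 430, 422, 437 and 463 TPM in the 5 ΔMye Tat libraries, all above the F/F Tat maximum of 239 TPM. The log2 difference was 0.90 (standard error 0.04, adjusted p = 7.40e-13, limma), or 0.68 after scaling. C1qc was at 203, 205, 193, 201 and 223 TPM in ΔMye Tat, again without overlap, with a log2 difference of 0.84 (standard error 0.05, adjusted p = 1.00e-10, limma) and 0.62 after scaling. C1qa, from the same cluster, was at 200, 204, 198, 202 and 203 TPM and differed less, by 0.36 (standard error 0.04, adjusted p = 2.46e-07, limma), which scaling brought to 0.14 (adjusted p = 0.0287) with overlapping groups. Non-overlap in this direction was shown by 28.6% of tested genes. Against PBS, C1qb in ΔMye Tat differed by 0.06 (95% interval -0.02 to 0.14, adjusted p = 0.174, limma) as deposited and 0.47 after scaling, C1qc by -0.30 and 0.11 (adjusted p = 0.119), and C1qa by -0.73 and -0.32.

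Dividing a library by a factor leaves its chain shares unchanged, so the shares do not depend on median-ratio scaling. C1qb made up 41.3% ± 1.04 (SD, n = 6) of the summed C1q chains in PBS. Its share was 45.9% ± 0.783 in F/F Tat (n = 6) and 51.4% ± 0.943 in ΔMye Tat (n = 5). C1qa made up 33.5% ± 0.650, 31.3% ± 0.478 and 24.1% ± 0.753. The shares of both genes did not overlap between any pair of groups compared (exact two-sided permutation tests, adjusted p = 0.00260 over 6 tests for F/F Tat with PBS and for ΔMye Tat with F/F Tat). Each test gave 0.00216 before adjustment, the smallest these group sizes allow. C1qc went from 25.2% ± 0.868 to 22.8% ± 0.625 with Tat and was 24.5% ± 0.687 in ΔMye Tat (exact permutation tests, adjusted p = 0.00260 and 0.00649). The ratio of C1qb to C1qa was 1.23 ± 0.05, 1.47 ± 0.04 and 2.14 ± 0.10 in the 3 groups in that order. For C1qc to C1qa it was 0.754 ± 0.0311, 0.730 ± 0.0230 and 1.02 ± 0.0473, of which the step from PBS to Tat did not pass its test (log2 difference -0.046, exact permutation test, adjusted p = 0.156). None of the 31-base sequences of the 3 genes occur in another gene.

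**Figure D3:**
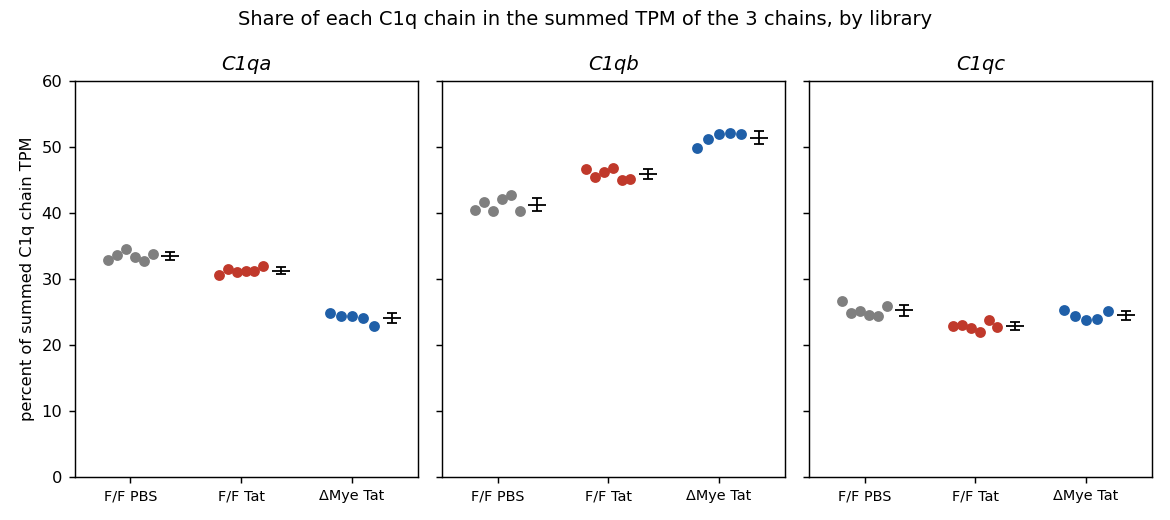
Percent of the summed TPM of C1qa, C1qb and C1qc held by each chain in every library (points, vertical axis from 0 to 60%), with the group mean and SD in black. The C1qb share steps up from 41.3% to 45.9% to 51.4% over F/F PBS, F/F Tat and ΔMye Tat, and the C1qa share steps down from 33.5% to 31.3% to 24.1%.

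As deposited, the alternative pathway genes raised by Tat stood near their F/F Tat level in ΔMye Tat. After scaling Cfb and C3 were both lower in ΔMye Tat, without overlap. Cfb was at 963, 924, 909, 948 and 860 TPM, overlapping the 937 to 1001 TPM of F/F Tat. The log2 difference was -0.07 (95% interval -0.13 to -0.02, adjusted p = 0.0259, limma) as deposited and -0.30 (adjusted p = 7.33e-08) after scaling, and without ΔMye Tat library 19 it was -0.09 (adjusted p = 0.00969). Of the log2 difference of Cfb between F/F Tat and PBS, ΔMye Tat showed 97.0% as deposited and 90.5% after scaling. For C3 it showed 87.7% and 77.5%. These ratios carry no test since both differences share the PBS libraries. Of the 31-base sequences of Cfb, 75.5% also occur in Gm20547, a readthrough transcript of C2 and Cfb, so the split of reads between the 2 genes is uncertain. Gm20547 was listed above 0 in 2 of the 17 libraries.

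C3 was at 157, 139, 130, 136 and 103 TPM in the ΔMye Tat libraries 19 to 23, a wider spread (coefficient of variation 14.6%) than the 5.27% of F/F Tat, and the groups overlapped. The log2 difference was -0.10 (95% interval -0.25 to 0.06, adjusted p = 0.269, limma) as deposited and -0.32 (95% interval -0.43 to -0.20, adjusted p = 1.30e-04) after scaling, with no overlap. Libraries 19 and 23, the highest and lowest for C3, also had the highest and lowest median deviation of transcripts over 5000 bases, at 0.18 and -0.25, and the C3 transcript has 5136 bases. Without both libraries the C3 difference was -0.06 (adjusted p = 0.288, limma) as deposited and -0.29 (adjusted p = 1.14e-05) after scaling. The part of transcript length was not otherwise tested. Cfp was at 106, 105, 104, 107 and 99.8 TPM, below every F/F Tat library, which 8.01% of tested genes showed. Its log2 difference was -0.38 (standard error 0.03, adjusted p = 2.51e-08, limma) and -0.60 after scaling, and against PBS it was -0.80 and -0.39.

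The receptors differed from each other. C3ar1 was at 117, 115, 120, 121 and 119 TPM in ΔMye Tat, inside the F/F Tat range of 114 to 126 TPM, with a log2 difference of -0.01 (95% interval -0.09 to 0.07, adjusted p = 0.842, limma) as deposited and -0.23 (adjusted p = 4.01e-05) after scaling. C5ar1 was at 113, 104, 108, 109 and 106 TPM, above every F/F Tat library, with a log2 difference of 0.35 (standard error 0.06, adjusted p = 5.03e-05, limma) that scaling reduced to 0.13 (adjusted p = 0.0283). Against PBS, C5ar1 differed by 0.12 (95% interval -0.0034 to 0.25, adjusted p = 0.0666, limma) as deposited and by 0.53 after scaling.

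Set against PBS, ΔMye Tat had 2 members higher (C3 and Cfb) and 4 lower (C1qa, C1qc, Cfp and C3ar1), where 17.5% of tested genes were higher and 58.8% lower (adjusted p under 0.01, limma). Cfb was over 3-fold higher, with 4.38% of tested genes, and no member over 3-fold lower, with 11.1%. The same 2 and 4 members separated the groups, as did 14.8% of tested genes upwards and 52.8% downwards. After scaling 4 members were higher and 3 lower, with 33.8% and 33.9% of tested genes. The 8 transcripts summed to 1713 ± 49.3 TPM (SD, n = 6) in PBS and 1953 ± 58.1 TPM (n = 6) with Tat, and in ΔMye Tat to 2222 ± 39.6 TPM (n = 5). Cfb took 10.2%, 49.6% and 41.4% of that sum, and the C1q chains 58.5%, 25.7% and 37.7%. By mean TPM the order in PBS ran C1qb, C1qa, C1qc, Cfp, Cfb, C3ar1, C5ar1 and C3, with Cfp, Cfb and C3ar1 overlapping their neighbours. In F/F Tat it ran Cfb, C1qb, C1qa, C3, Cfp, C3ar1, C1qc and C5ar1, where C1qa, C3 and Cfp overlapped their neighbours, as did C3ar1 and C1qc. In ΔMye Tat it ran Cfb, C1qb, C1qc, C1qa, C3, C3ar1, C5ar1 and Cfp, with overlap of C1qc and C1qa, of C3 and C3ar1, and of C5ar1 and Cfp.

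A list of 52 other complement genes placed the members in their pathway. Of these, 50 were in the table, 20 were tested and 10 were listed at 0 in every library, among them Cfd, the protease that activates factor B. None of the 7 terminal genes, which build the membrane attack complex, was tested. C4a was not analysed here. With Tat, 4 of the 20 rose and 13 fell at an adjusted p under 0.01 (limma), with a median log2 difference of -0.81 beside -0.65 for all tested genes, of which 17% were higher and 67.6% lower. After scaling 8 were higher and 10 lower with a median of -0.20, beside 37.3% and 38.0% of all tested genes.

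Of the 6 tested initiation genes, 2 were higher with Tat (C2 and C1ra), 2 lower (C1rl and Fcna) and 2 neither, and after scaling 5 were higher and 1, C1rl, lower. C1rl, a C1r-like protease gene, fell from 4.58 to 1.61 TPM (log2 difference -1.45, or -0.84 after scaling), and Fcna, a ficolin gene, differed by -0.27 as deposited and 0.36 after scaling. C2, which supplies the protease subunit of the classical convertase, rose from 1.50 ± 0.213 TPM to 3.56 ± 0.209 TPM (log2 difference 1.20, adjusted p = 2.41e-09, limma, or 1.80 after scaling). Gm20547 holds 40.2% of its 31-base sequences. C4b was at 40.8 ± 4.32 and 39.7 ± 3.33 TPM (log2 difference -0.04, adjusted p = 0.680, limma) but was higher with Tat after scaling (0.60, adjusted p = 2.01e-07). In ΔMye Tat it was lower than in F/F Tat, at 26.2 ± 3.64 TPM (-0.60, adjusted p = 1.49e-05, limma, or -0.83 after scaling). C4b shares 48.3% of its 31-base sequences with C4a, and its ΔMye Tat deviations in libraries 19 and 23 were 0.20 and -0.37. Of the soluble regulators, Serping1, the C1 inhibitor gene, rose from 1.16 to 2.25 TPM (log2 difference 0.89, or 1.48 after scaling). The membrane regulator Cr1l did not pass the test (0.04, adjusted p = 0.198, limma) but was 0.68 higher after scaling, and Cd55 fell from 1.38 to 0.720 TPM (-0.81), which did not pass after scaling (-0.24, adjusted p = 0.361).

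All 9 tested genes of the receptor group of the list, which leaves out C3ar1 and C5ar1, were lower with Tat as deposited. The group was drawn broadly and includes Calr, C1qbp and Lrp1. After scaling 8 of the 9 were still lower, while Itgam no longer passed (-0.11, adjusted p = 0.0136, limma). The shares of all tested genes that were lower were 67.6% as deposited and 38.0% after scaling. Cd93, a surface glycoprotein linked to clearance of dying cells, fell furthest, from 126 TPM to 5.86 TPM (log2 difference -4.40, standard error 0.11, or -3.77 after scaling). It stood at 11.7 TPM in ΔMye Tat. C5ar2, the second C5a receptor, fell from 1.11 to 0.149 TPM (-2.35, or -1.87 after scaling). C1qbp fell from 109.6 to 35.0 TPM (-1.65, or -1.01 after scaling) and Lrp1 from 99.0 to 30.3 TPM (-1.70, or -1.06 after scaling). Vsig4, a macrophage receptor for C3 fragments, fell from 10.8 to 5.18 TPM (-1.04, or -0.41 after scaling). Itgb2, the shared chain of complement receptors 3 and 4, fell from 825 to 418 TPM (-0.98, or -0.34 after scaling). Itgam, its partner in complement receptor 3, fell from 178 to 106 TPM (-0.75). Of the 31-base sequences of Itgam, 67.2% are shared with Gm49368, which was listed above 0 in all 17 libraries, so the split of reads is uncertain. Between the Tat groups 7 of the 20 genes were higher in ΔMye Tat, among them Cd93 (0.98, or 0.76 after scaling) and Itgb2 (0.35, or 0.13 after scaling), and 4 lower (C4b, Fcna, Clu and Calr), and no gene passed a fold of 3. Of all tested genes, 38.8% were higher and 8.87% lower. After scaling 5 list genes were higher and 7 lower, beside 15.9% and 19.4% of all tested genes.

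**Figure D4:**
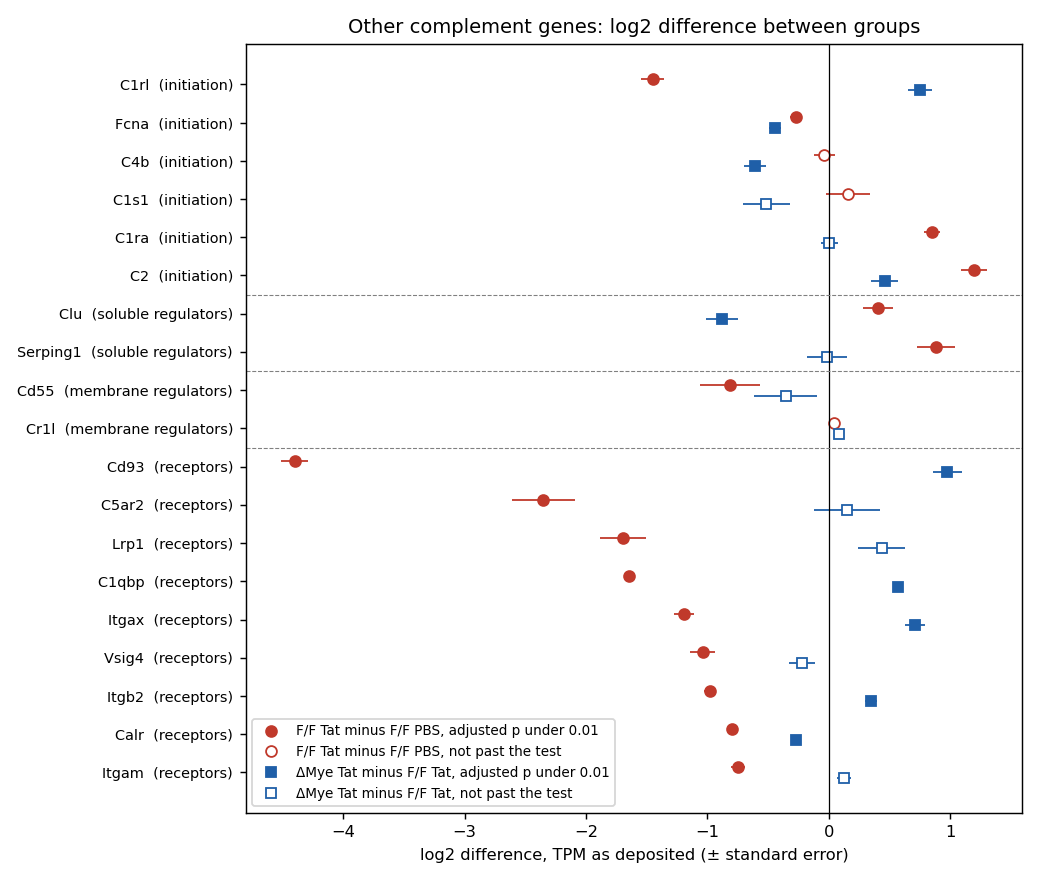
Log2 differences (TPM as deposited, with standard errors) of the tested genes of the wider complement list, 1 of which is not shown, grouped by role, for F/F Tat minus F/F PBS (red circles) and ΔMye Tat minus F/F Tat (blue squares), with filled symbols at an adjusted p under 0.01 (limma). All 9 genes of the receptor group lie left of 0 with Tat, down to -4.40 for Cd93, while C2 lies at 1.20.

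For each member the 2 tested genes with the most similar profile were found by the root mean square difference of centred log2(TPM + 0.1) over the 17 libraries. For C1qb these were Mfge8, whose product bridges apoptotic cells to phagocytes (0.10, at 111, 55.2 and 103 TPM in the same 3 groups), and Phgdh (0.10), and C1qc ranked in place 28. C1qc was most like Cd82 (0.10) and AI413582 (0.10), and C1qa most like Calm3 (0.06) and Rab1b (0.06). Cfb was closest to Rcl1 (0.09) and to Cd274, which encodes PD-L1 (0.09, at 165, 855 and 824 TPM). C3 was closest to Fam129b (0.06) and Sbno2 (0.06), and Cfp to Grn, the progranulin gene (0.06), and Baiap2 (0.08), with C3ar1 in place 72. C3ar1 was nearest to Lman2 (0.05) and the macrophage marker Cd68 (0.06), and C5ar1 to Sfpq (0.08) and Ddx21 (0.08). Both differences between groups enter this measure, so it describes these libraries and carries no test.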

How the data were processed

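The authors quantified RNA-Seq reads with Salmon against Ensembl transcripts of GRCm38 (mm10 per the labels) and deposited TPM for each gene symbol, with no further normalization stated. Their own testing was a TMM-normalized edgeR likelihood ratio analysis of counts, which was not repeated. Groups came from the sample labels, and each of the 17 libraries had 1 column. TPM hold no counts, so depth is unknown and the number of libraries sets the precision.

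A gene was tested if 5 or more libraries reached 1 TPM (10451 genes). One linear model of log2(TPM + 0.1) held all 3 groups and left 14 residual degrees of freedom (limma 3.58.1 in R 4.3.3, trended eBayes), and p-values were adjusted by Benjamini-Hochberg over those genes. Fold changes are on that scale and understate changes of low genes. An adjusted p under 0.01 was the threshold, and a fold over 3 was counted as well. In median-ratio scaling a library was divided by the median, over genes above 0 everywhere, of its ratios to their geometric means. Differences in mean C1q chain shares between libraries were tested by exact permutation, two-sided, adjusted over 6 tests, at a threshold of 0.05. The scripts were tested on simulated data.

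Named genes were the 8 members, fixed genes of the 52-gene complement list and those of it past the test and over 3-fold, the 2 nearest profiles of each member, Ikbkb, Lyz2 and readthrough partners. A gene that the rule names and the shared mutation are not reported. The members, lists and tests were chosen with earlier results of these data known. C1ra, C1rl, Calr, Clu, Fcna and the single markers of the neutrophil and resident macrophage lists were named after their values were seen. Marker lists covered macrophages, resident large peritoneal macrophages, neutrophils, B cells, T and NK cells, mast cells, mesothelial cells, fibroblasts, eosinophils and dendritic cells. The summed ranges not given with the results were, in F/F PBS, F/F Tat and ΔMye Tat, 12.4 to 25.7, 11.3 to 15.0 and 8.33 to 13.0 TPM for B cells, 2.97 to 6.99, 1.75 to 2.69 and 5.22 to 6.95 TPM for T and NK cells, 31.4 to 43.9, 29.3 to 41.0 and 22.7 to 29.1 TPM for mast cells, 1.18 to 2.41, 1.27 to 2.09 and 0.955 to 1.41 TPM for eosinophils, and 1.11 to 1.93, 1.22 to 1.94 and 0.810 to 1.46 TPM for dendritic cells.

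Coordinates came from GENCODE M21 and upstream windows from RefSeq, both on GRCm38. Shared 31-base sequences were counted in the reference transcripts, and genes of mean 10 TPM or more entered the transcript length check by library. The alternatives tried were scaling by median ratios or quantiles, other pseudocounts (0.5 and 1), a stricter filter (5 TPM) or none, a model of the compared groups alone, array weights with robust eBayes, exact permutation tests, the log2 ratio of 2 chains, and leaving out each library in turn. Leaving out ΔMye Tat libraries 19 and 23 together was added after the data were seen. Python 3.11.15 was used with pandas 2.3.3, numpy 2.4.6, scipy 1.17.1 and, for plots, matplotlib 3.10.9.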

Additional observations from a re-analysis of the deposited data

How the results depend on the processing

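Median-ratio scaling gave 5 members higher and 3 lower with Tat in place of 2 and 6, with Cfp at 0.21, C3ar1 at 0.11 and C5ar1 at 0.40. Quantile normalization gave 2 higher and 5 lower, with Cfp at -0.45 and C3ar1 at -0.53. Leaving out ΔMye Tat libraries 19 and 23 cannot change these differences, since no ΔMye Tat library enters them. On the wider complement list, the count higher with Tat was 8 with scaling, 7 with quantile normalization and 1 with the filter at 5 TPM, which tested fewer genes, in place of 4. Over 3-fold it was 1 and 2 higher in place of 0, and 2 and 1 lower in place of 5, with scaling and quantile normalization. As deposited, 5.21% of all tested genes were over 3-fold higher with Tat and 19.4% over 3-fold lower. These shares were not counted on the other scales. Between the Tat groups scaling gave 2 members higher and 4 lower in place of 4 and 1, and 7 list genes lower in place of 4, also without libraries 19 and 23. Quantile normalization left the members at 4 higher and 1 lower. Against F/F PBS scaling gave 4 members higher in place of 2, also without those libraries, C1qc stood at 0.11 (0.063 without those libraries), and quantile normalization put C1qb at -0.17. The cause was not tested. The C1qc share difference with Tat, taken as a log2 ratio to C1qa, was -0.046 (exact permutation test, adjusted p = 0.156).

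With each library left out in turn, the members lower between the Tat groups numbered 1 to 2 (Cfb joined Cfp without ΔMye Tat library 19), C3ar1 ranged from -0.023 to 0.0070, above 0 without F/F Tat library 11 (0.00696) or ΔMye Tat library 20 (0.00196), and C3 from -0.16 to -0.01. Of all 408 member values from leaving out a library, 405 kept direction and side of the threshold. This count includes values where the library left out was of the group not compared. There the difference could not change, only its adjusted p. No paired analysis was possible because the groups share no replicate numbers. TPM hold no counts, so differences below the spread between libraries could not be told from counting error.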
